A study of Mus musculus with 2 samples.

Results

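The genes described here make, modify, carry, burn and store fatty acids. They are 40 genes chosen by symbol, with earlier results of these data known, and 39 of them were read by at least 1 probe set assigned to a single gene, out of 18193 genes so assigned on the array. These 39 genes had 96 probe sets, of which 84 were above background on at least 1 of 2 arrays. The exception was Acsl1, whose expression is not analysed here because no probe set was assigned to it alone. One further gene, Acacb, was not above background on either array (highest signals 5.57 and 2.60), so 38 members were measured. Of these, 35 were above background on both arrays, 2 in SVEC4-10 only and 1 in MS-1 only.

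RNA came from cultures of a pair of mouse lines described as endothelial. The endothelial markers below do not bear out that name for the SVEC4-10 array. MS-1 comes from pancreatic microvessels and was grown in DMEM with 5% fetal calf serum, and SVEC4-10 comes from an axillary lymph node and was grown in DMEM with 10% fetal calf serum. Both are established lines that carry the SV40 large T antigen, and both were taken at confluence after 3 to 5 days, at passage 5 or below. The series has 1 Affymetrix array per line and no replicates, so no test between the lines was possible and no difference has a replicate check. Serum and line cannot be told apart, which bears on lipid genes because serum carries fatty acids and lipoproteins.

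Fatty acids are built in the cytosol. Citrate is split to acetyl-CoA, acetyl-CoA is carboxylated to malonyl-CoA, and fatty acid synthase joins these units to palmitate, which elongases lengthen and desaturases bend. Free fatty acids are bound by small carrier proteins and joined to coenzyme A before use. They are then either carried into mitochondria by the carnitine shuttle and shortened by beta-oxidation, or esterified to glycerol and kept as triglyceride in lipid droplets, from which lipases release them. Endothelium takes part in this traffic as the site where lipoprotein lipase frees fatty acids from lipoproteins, an enzyme made by neighbouring cells and held on the vessel wall by the anchor protein GPIHBP1.

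A background level was set for each array from genes of odorant, pheromone and taste receptors and hair keratin-associated proteins, at a signal of 16.3 in MS-1 and 17.6 in SVEC4-10. Signals are linear intensities. Ratios are given as log2 of SVEC4-10 over MS-1, after values under background were raised to it, so "at least" marks a fold taken against the background of the dimmer array. The error of a log2 ratio was 0.48, from the spread between probe sets of one gene (4813 genes), and 0.33 within the members (20 genes with several probe sets above background on both arrays). This error holds no variation between cultures. Both arrays had the same trimmed mean. In bulk RNA, fewer cells of a type and less RNA per cell cannot be told apart.

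The labels were set against marker genes. Of 15 endothelial markers, 14 were measured, with summed signals of 28204 in MS-1 and 197 in SVEC4-10, and 12 were at least 4-fold higher in MS-1. Pecam1, Emcn, Nos3 and Esam were not above background in SVEC4-10. Of 12 mesenchymal markers, 11 were measured, with summed signals of 166 in MS-1 and 41733 in SVEC4-10. All 11 were at least 2-fold higher in SVEC4-10. For 9 mesothelial markers the sums were 404 and 15967. A difference of 4-fold or more towards SVEC4-10 was seen for 7 of them, while the keratins Krt18 (201 and 24.5) and Krt19 (121 and 8.93) were at least 4-fold higher in MS-1. Of the 14 measured endothelial markers, 3 were above background on the array labelled SVEC4-10, so its endothelial name is not borne out by them. All differences below run alongside these differences in markers, whose part in them was not tested. Of 12 fat cell markers, 9 were on the array and 4 were measured, with summed signals of 90.5 and 89.8. Adipoq, Cidec, Retn, Lep and Ucp1 were not above background on either array. Of 9 macrophage markers, 5 were measured, with sums of 3746 and 264. Cd68, a lysosomal glycoprotein (3645 and 45.9), made up most of the first sum and Cd14, a lipopolysaccharide co-receptor (8.81 and 160), most of the second, while Ptprc, Itgam, Tyrobp and Aif1 were not above background. Of 7 muscle markers, 5 were measured (sums of 117 and 275), with Tnnt2 at 35.8 and 218, and of 5 hepatocyte markers 1 was measured, Cyp2e1, at 9.29 and 18.1. Of 6 lymphatic markers, 4 were measured, and Prox1 was not above background. Their sums of 2434 and 2155 hold members far apart in opposite directions: Lyve1 had signals of 1250 and 5.92, at least 70.9-fold higher in MS-1, Flt4 had 938 and 438, and Pdpn had 228 and 1693, 7.43-fold higher in SVEC4-10.

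Most of the fatty acid genes, like most measured genes, were less than 2-fold apart between the lines, and 5 were at least 4-fold apart. Lipoprotein lipase (Lpl), monoglyceride lipase (Mgll), the carrier Fabp5 and the elongase Elovl7 were at least 4-fold higher in SVEC4-10, and the carrier Fabp4 was at least 4-fold higher in MS-1. At 2-fold, 10 of 38 measured members (26.3%) were higher in SVEC4-10, where 15.1% of all 12583 measured genes were, and 4 (10.5%) were higher in MS-1, where 12.0% of all measured genes were. The other 24 were less than 2-fold apart, as were 9173 of all 12583 measured genes. Of the 38, 14 lay within the error of 0.48 of no difference. The 25th to 75th percentile of all measured genes ran from -0.50 to 0.58. At 4-fold, 4 members were higher in SVEC4-10 and 1 in MS-1, against 5.60% and 4.20% of all measured genes.

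The median log2 ratio of the members was 0.019 and that of all measured genes was 0.018. A gene above background on 1 array only has a ratio taken against background, which need not reach 2-fold. Among the 35 members above background on both arrays, 8 were at least 2-fold higher in SVEC4-10 and 3 in MS-1. The shares of all such genes were 13.5% and 10.6%. At 4-fold these counts were 2 and 0, beside 3.68% and 2.70%. When the arrays were scaled to 21 poly-A control probe sets, transcripts added to the RNA, every log2 ratio was lowered by 0.51 and the split of members changed from 10 and 4 to 6 and 9, beside 8.42% and 25.3% of all measured genes under that scaling. The direction of the 14 members at least 2-fold apart was the same under all 4 scalings tried. Log2 ratios under 0.51 and above 0 turned negative in the scaling to poly-A controls, which applied to 5 members.

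**Figure D1:**
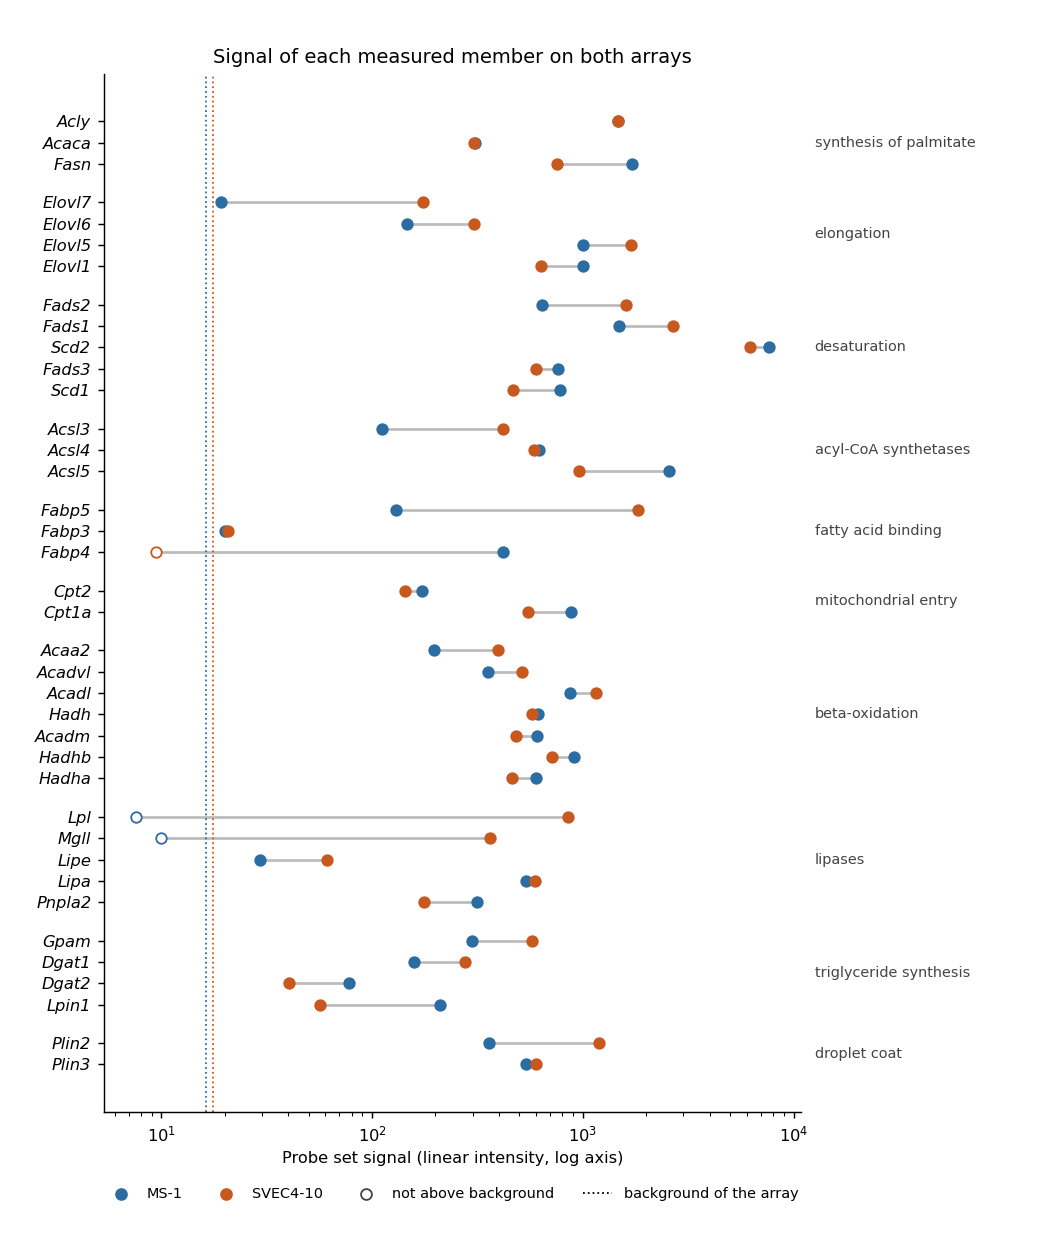
Signal of the probe set used for each of the 38 measured members in MS-1 (blue) and in SVEC4-10 (orange), grouped by role, with a log axis of linear intensity. Open circles were not above background, and dotted lines mark the background of each array (16.3 and 17.6). Signals of different genes come from different probes and cannot be ranked against each other. Lpl, Mgll and Fabp4 have 1 open circle each, and the pairs of Acly, Acaca and Fabp3 overlap.

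Among the genes that make palmitate, only the synthase itself was at least 2-fold apart, and it was higher in MS-1. Fasn, fatty acid synthase, had a signal of 1709 in MS-1 and 753 in SVEC4-10, 2.27-fold higher in the former (log2 ratio -1.18), by its single probe set. Acly, which splits citrate to acetyl-CoA, had signals of 1464 and 1465 (log2 ratio 0.00071), and its 4 measured probe sets ran from -0.33 to 0.071. Acaca, the cytosolic acetyl-CoA carboxylase, had signals of 309 and 304 (log2 ratio -0.023), and its second probe set gave -0.25. The steps before the synthase thus lay within the error of 0.48, and Fasn lay more than 2 times that error below 0. Acacb, the carboxylase whose product restrains the carnitine shuttle at mitochondria, was the member not above background on either array.

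Of 4 elongases, 2 were at least 2-fold higher in SVEC4-10 and none in MS-1, beside 15.1% and 12.0% of all measured genes. The elongases had a median log2 ratio of 0.91 (0.40 in the scaling to poly-A controls). Elovl7, which acts on saturated and polyunsaturated acyl-CoAs, had a signal of 19.2 in MS-1, just above background, and 174 in SVEC4-10, a 9.06-fold difference (log2 ratio 3.18). All 6 of its probe sets were higher in SVEC4-10, with log2 ratios from 0.78 to 3.18, of which the 5 not used were bounds, since MS-1 was below background there. Elovl6, which extends palmitate to stearate, had signals of 146 and 305 (log2 ratio 1.06), but its second probe set, with signals of 115 and 129, gave 0.17. Elovl5, which extends polyunsaturated chains, had signals of 1003 and 1696 (log2 ratio 0.76), and its second probe set gave 0.73. Elovl1, which makes very long saturated chains, was the exception in direction, with signals of 1002 and 634 (log2 ratio -0.66), and its 4 probe sets ran from -0.73 to -0.26.

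Of 5 desaturases, 1 was at least 2-fold higher in SVEC4-10 and none in MS-1, beside 15.1% and 12.0% of all measured genes. Fads2, the delta-6 desaturase that opens synthesis of long polyunsaturated fatty acids, had a signal of 640 in MS-1 and 1595 in SVEC4-10 (log2 ratio 1.32), and its 3 probe sets agreed closely, from 1.32 to 1.49. Fads1, the delta-5 desaturase of the same route, had signals of 1488 and 2684 (log2 ratio 0.85). Its second probe set, with signals of 59.5 and 14.1, gave -1.76, so the direction of Fads1 depends on the probe set. Fads3, a further member of the FADS family, had signals of 766 and 599 (log2 ratio -0.35), with -1.76 and -0.94 at its other probe sets.

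Scd1 and Scd2, the delta-9 desaturases that turn stearate and palmitate into monounsaturated fatty acids, were both below 0 at every probe set. Scd1 had signals of 783 and 464 (log2 ratio -0.75) and -0.35 at its second probe set. Scd2 had signals of 7660 and 6208 (log2 ratio -0.30), and its further probe sets gave -0.66 and -1.08. The mouse Scd genes are close in sequence, and whether a probe set reads more than 1 of them was not tested.

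The acyl-CoA synthetases, which activate fatty acids by joining them to coenzyme A, lay on opposite sides. Acsl3, which sits on the endoplasmic reticulum and on growing lipid droplets, had signals of 112 and 418, 3.73-fold higher in SVEC4-10 (log2 ratio 1.90). Its other probe sets gave 1.60 and 0.95, the latter a bound, with signals of 5.43 (below background) and 31.4. The probe set used is of the class that can match several transcripts, and the one at 1.60 is gene-specific. Acsl5 had signals of 2552 and 955, 2.67-fold higher in MS-1 (log2 ratio -1.42), by a single probe set. Acsl4, which prefers arachidonate, had signals of 620 and 588 (log2 ratio -0.075), with -0.79 and -0.44 at its other probe sets.

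Of the 3 fatty acid binding proteins, Fabp4 was higher in MS-1 and not above background in SVEC4-10, Fabp5 was higher in SVEC4-10 and above background in both lines, and Fabp3 was nearly equal. Fabp4, the carrier of fat cells, macrophages and capillary endothelium, had a signal of 418 in MS-1 and 9.39 in SVEC4-10, at least 23.7-fold higher in the former (log2 ratio -4.57). A second probe set had signals of 1155 and 0.77, at least 65.6-fold higher in MS-1, and the other 2 of its 4 probe sets were not above background on either. Fabp5, the closely related epidermal carrier, had signals of 130 and 1838, 14.2-fold higher in SVEC4-10 (log2 ratio 3.83), and its second probe set, with signals of 61.4 and 677, gave 3.46. Fabp3, the heart and muscle carrier, had signals of 20.1 and 20.6, barely above background in both lines. The fat cell markers named above were not above background on either array. Of the 4 measured, Pparg (43.7 and 27.3) and Slc2a4 (27.6 and 18.6) were higher in MS-1. Cebpa (9.79 and 24.4) and Plin4 (9.45 and 19.5) were higher in SVEC4-10, with MS-1 below background. All 4 were less than 2-fold apart. The endothelial sum was higher in MS-1, as Fabp4 was, and the mesenchymal and mesothelial sums were higher in SVEC4-10, as Fabp5 was. The macrophage list was split, with Cd68 higher in MS-1 and Cd14 higher in SVEC4-10. Its other measured genes, Csf1r, Adgre1 and Lyz2, were less than 2-fold apart (log2 ratios -0.35, -0.44 and -0.38). Signals of Ptprc, Itgam, Tyrobp and Aif1 lay below background in both lines. The part of any of these markers in the Fabp4 and Fabp5 differences was not tested.

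**Figure D2:**
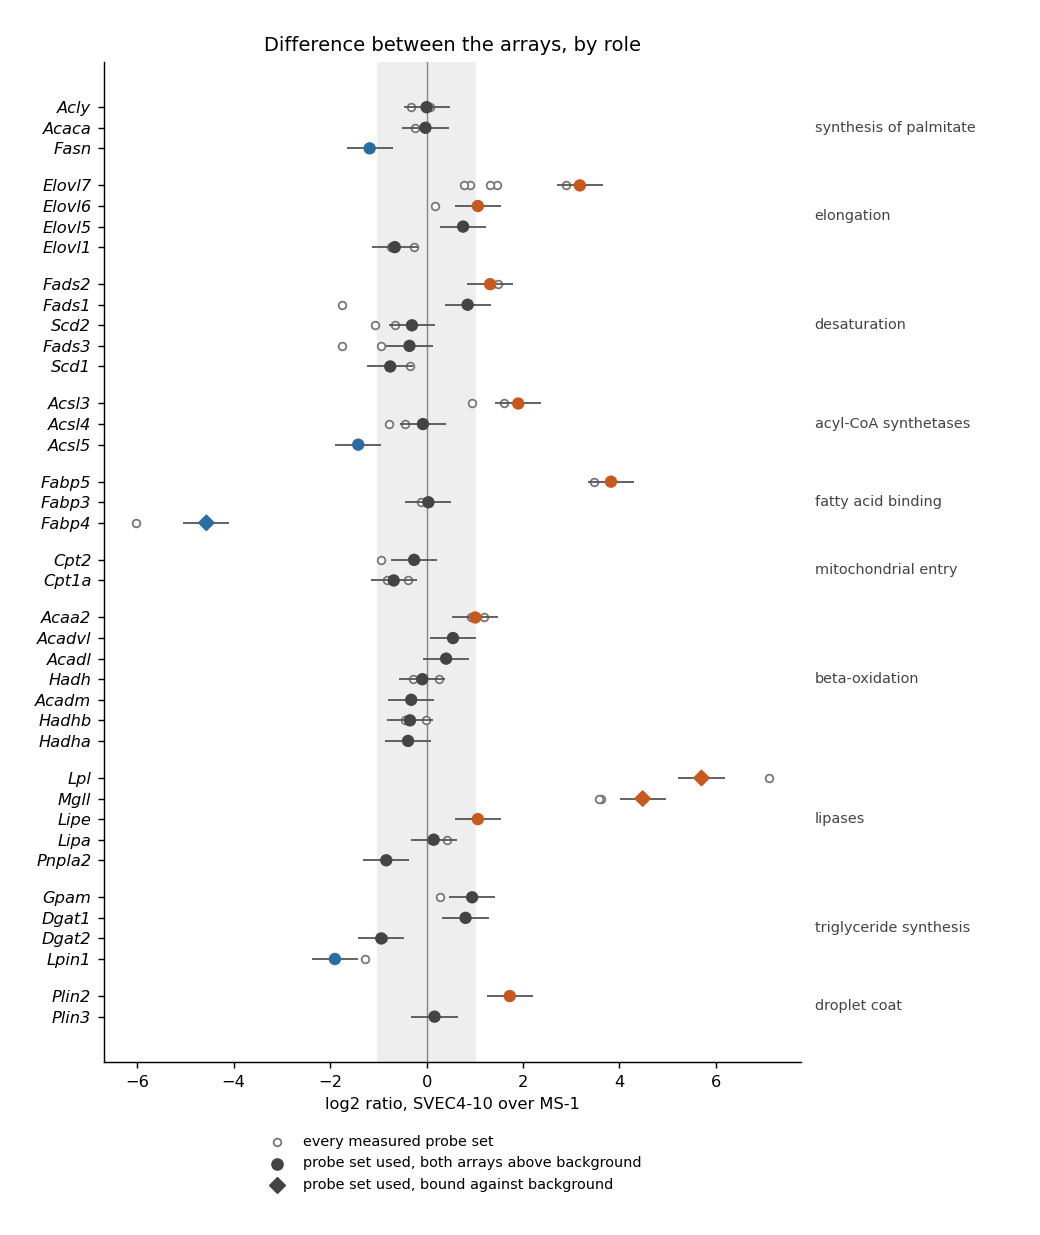
Log2 ratio of SVEC4-10 over MS-1 for the 38 measured members by role. Filled symbols are the probe set used, with bars of the 0.48 error between probe sets, diamonds are bounds against background, and open circles are all measured probe sets. The grey band spans less than 2-fold. Lpl (5.70), Mgll (4.48), Fabp5 (3.83) and Elovl7 (3.18) lie far to the right and Fabp4 (-4.57) far to the left. Inside the band lie 6 of the 7 beta-oxidation genes, beside 9173 of all 12583 measured genes, which are not drawn.

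Of 9 genes of mitochondrial entry and beta-oxidation, 1 was at least 2-fold higher in SVEC4-10 and none in MS-1. Among all measured genes these shares were 15.1% and 12.0%. Cpt1a, which loads fatty acids onto carnitine and sets the rate of entry, had signals of 880 and 549 (log2 ratio -0.68), and its other probe sets gave -0.38 and -0.81. Cpt2, which returns them to coenzyme A inside the mitochondrion, had signals of 172 and 144 (log2 ratio -0.26). Both were higher in MS-1 at every measured probe set, by less than 2-fold except at that bound, which gives at least 1.93-fold.

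The acyl-CoA dehydrogenases, which take the first step of beta-oxidation on chains of different length, were all less than 2-fold apart. Acadvl, for very long chains, had signals of 354 and 517 (log2 ratio 0.55), Acadl, for long chains, 868 and 1149 (0.40), and Acadm, for medium chains, 604 and 484 (-0.32). In the scaling to poly-A controls these became 0.035, -0.11 and -0.83. The subunits of the trifunctional protein, which carries the later steps for long chains, had close ratios. Hadha had signals of 603 and 462 (log2 ratio -0.38) and Hadhb 911 and 718 (-0.34, with -0.44 and -0.015 at its other probe sets). Hadh, the dehydrogenase for shorter hydroxyacyl chains, had signals of 610 and 574 (log2 ratio -0.088).

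Acaa2, the thiolase of the last step, was the 1 oxidation gene past 2-fold, with signals of 197 and 398 (log2 ratio 1.01). Its 3 probe sets gave 1.01, 0.92 and 1.19. It was just past the threshold, as were Elovl6 and Lipe (both 1.06), whereas Gpam (0.95) and Dgat2 (-0.94) lay just short of it. These calls are separated by much less than the 0.48 error.

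Of 5 lipases, 3 were at least 2-fold higher in SVEC4-10 and none in MS-1, beside 15.1% and 12.0% of all measured genes. Lpl, which frees fatty acids from the triglyceride of lipoproteins, had a signal of 849 in SVEC4-10 and 7.56 in MS-1, at least 52.1-fold higher in the former (log2 ratio 5.70). Its second probe set had signals of 2245 and 1.73, at least 138-fold higher. Mgll, which completes lipolysis and also breaks down an endocannabinoid, had a signal of 364 in SVEC4-10 and 9.92 in MS-1, at least 22.4-fold higher in the former (log2 ratio 4.48). Its other measured probe sets gave 3.63 and 3.58, and none of its 4 probe sets was above background in MS-1.

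Pnpla2, the triglyceride lipase that starts it, had signals of 316 and 177 (log2 ratio -0.84). Lipe, the hormone-sensitive lipase that acts next on diglyceride, had low signals of 29.3 and 61.3 (log2 ratio 1.06). Lipa, the acid lipase of lysosomes, had signals of 535 and 593 (log2 ratio 0.15), and its 3 probe sets ran from 0.093 to 0.42. The 3 enzymes that release fatty acids from cytosolic droplets in turn (Pnpla2, Lipe, Mgll) thus had log2 ratios of -0.84, 1.06 and at least 4.48.

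Triglyceride synthesis had members on both sides. Lpin1, a phosphatidate phosphatase that makes diglyceride and also acts in the nucleus, had signals of 211 and 56.5, 3.74-fold higher in MS-1 (log2 ratio -1.90), with -1.28 at its second probe set. Dgat2, 1 of 2 acyltransferases of the final step, had low signals of 77.6 and 40.5 (log2 ratio -0.94), and its second probe set gave -0.91. Dgat1, the other, had signals of 159 and 277 (log2 ratio 0.81). Gpam, the mitochondrial acyltransferase of the first step, had signals of 298 and 574 (log2 ratio 0.95), but 0.27 at its second probe set. Dgat1 and Dgat2 therefore lay in opposite directions, each by less than 2-fold.

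Of the droplet coat genes, Plin2, the coat protein found on droplets of most cell types, had signals of 360 and 1190, 3.31-fold higher in SVEC4-10 (log2 ratio 1.73). Plin3, which binds new droplets from the cytosol, had signals of 537 and 602 (log2 ratio 0.16, and -0.35 in the scaling to poly-A controls). Each had 1 probe set.

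Several probe sets read 27 of the 38 members, and in 23 of these all measured probe sets had the same sign. The exceptions were Acly, Fads1, Hadh and Fabp3. Of 10 such members at least 2-fold apart, all 10 kept their sign across probe sets, but in only 6 was every measured probe set at least 2-fold apart. The other 4 were Elovl6, Elovl7, Acsl3 and Acaa2. In Elovl7 and Acsl3 the probe sets short of 2-fold are bounds, with MS-1 below background. Fasn, Acsl5, Lipe and Plin2 rest on 1 measured probe set.

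**Figure D3:**
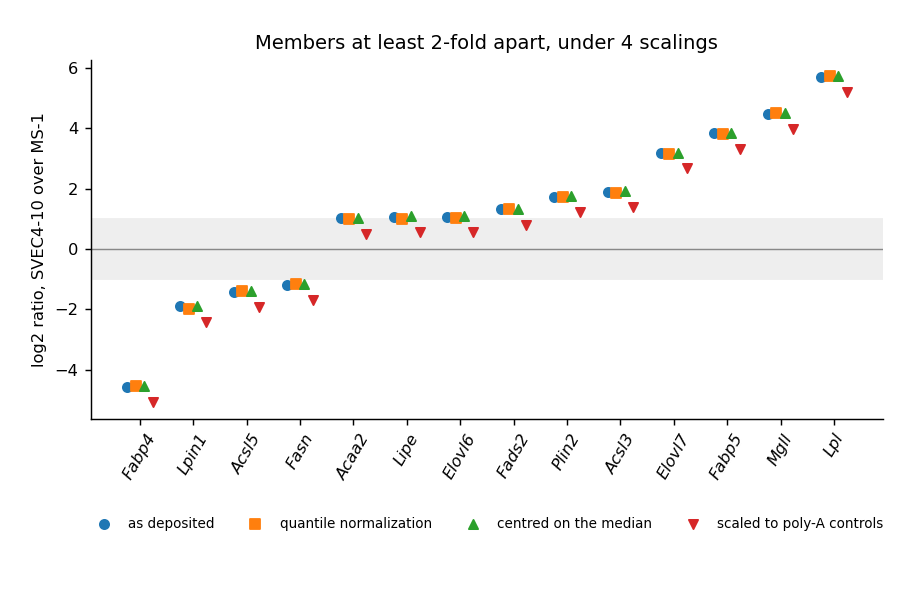
Log2 ratio of SVEC4-10 over MS-1 for the 14 members at least 2-fold apart, as deposited and after quantile normalization, median centring over expressed probe sets, and scaling to poly-A controls. The grey band spans less than 2-fold. Quantile normalization and centring leave the points almost in place, and the poly-A scaling lowers each by 0.51, which brings Acaa2, Lipe, Elovl6 and Fads2 into the band.

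Sequence upstream of the start site is shown for the members that differed most among those with an entry in the RefSeq promoter table of GRCm38.p6, which held 31 of the 40 members and 10 of the 14 at least 2-fold apart. Mgll and Elovl7 had the largest ratios towards SVEC4-10 in the table, and Lpin1, Acsl5 and Fasn were the entries higher in MS-1. Each run is the 250 bases before an annotated start, 5′ to 3′ on the strand of the gene. The start shown for Mgll is the outer end of the annotated gene, and those for Elovl7, Lpin1, Acsl5 and Fasn are not. Capitals mark 3 motifs read on both strands: the E-box CACGTG, the CCAAT box and the GC box GGGCGG.
Mgll, chr6:88724162-88724411, plus strand: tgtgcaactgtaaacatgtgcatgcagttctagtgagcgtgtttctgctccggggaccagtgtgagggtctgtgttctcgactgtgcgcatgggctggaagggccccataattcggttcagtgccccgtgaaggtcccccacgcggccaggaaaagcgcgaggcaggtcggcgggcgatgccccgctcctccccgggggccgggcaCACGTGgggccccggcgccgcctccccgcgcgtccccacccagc
Elovl7, chr13:108214154-108214403, plus strand: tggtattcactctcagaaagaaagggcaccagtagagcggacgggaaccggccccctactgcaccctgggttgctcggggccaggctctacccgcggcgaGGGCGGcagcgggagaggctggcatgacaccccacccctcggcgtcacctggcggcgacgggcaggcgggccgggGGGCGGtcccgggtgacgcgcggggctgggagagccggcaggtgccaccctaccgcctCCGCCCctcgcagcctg
Lpin1, chr12:16610967-16611216, minus strand: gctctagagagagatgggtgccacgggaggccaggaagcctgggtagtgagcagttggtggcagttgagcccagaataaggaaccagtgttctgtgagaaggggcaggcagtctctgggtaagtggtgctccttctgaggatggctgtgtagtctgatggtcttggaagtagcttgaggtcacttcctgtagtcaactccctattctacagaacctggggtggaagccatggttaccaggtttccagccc
Acsl5, chr19:55253119-55253368, plus strand: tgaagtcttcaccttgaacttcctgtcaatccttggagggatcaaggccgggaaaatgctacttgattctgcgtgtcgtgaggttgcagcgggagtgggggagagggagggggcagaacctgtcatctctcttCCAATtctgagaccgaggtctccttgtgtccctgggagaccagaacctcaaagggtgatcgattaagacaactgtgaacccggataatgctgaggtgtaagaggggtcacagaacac
Fasn, chr11:120824548-120824797, minus strand: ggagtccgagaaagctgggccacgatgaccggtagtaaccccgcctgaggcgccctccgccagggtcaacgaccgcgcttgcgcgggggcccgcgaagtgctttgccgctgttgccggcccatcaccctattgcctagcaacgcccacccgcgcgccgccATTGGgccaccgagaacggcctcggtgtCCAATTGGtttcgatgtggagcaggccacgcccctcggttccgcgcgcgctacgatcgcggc
The Mgll run is 1 of 2 starts listed for that gene.

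The Mgll run holds 1 E-box, 44 bases before the start at its first base, and the Elovl7 run holds 3 GC boxes. The Fasn run holds 3 CCAAT matches, of which the last 2 overlap on opposite strands, the Acsl5 run holds 1, and the Lpin1 run holds none of the 3 motifs. Over the members with an entry, the E-box was found in 3 of 31 (9.68%), beside 7.61% of 17492 protein-coding genes, the CCAAT box in 14 (45.2%), beside 39.5%, and the GC box in 19 (61.3%), beside 45.8%. By direction, among entries higher in SVEC4-10, higher in MS-1 and less than 2-fold apart, the GC box was found in 5 of 7, 0 of 3 and 13 of 19, the CCAAT box in 2 of 7, 2 of 3 and 8 of 19, and the E-box in 2 of 7, 0 of 3 and 1 of 19. Acsl1 and Acacb, whose expression was not measured, count among the 31 members but in no group by direction. Each gene was counted over all its listed starts, and Mgll has a GC box only at the start not shown. These groups are small, and no test was made of the splits. These matches describe letters in a window and not bound sites.

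Other genes of the same pathways were read from lists that hold no members. Among 21 measured transcriptional regulators, 4 (19.0%) were at least 2-fold higher in SVEC4-10 and none in MS-1. Of all measured genes 15.1% and 12.0% were, and the same shares stand beside the lists that follow. The regulators had a median of 0.18 (-0.33 in the scaling to poly-A controls). Cebpb, a factor of fat cell and inflammatory gene control, had signals of 500 and 1898, 3.80-fold higher. Scap, which escorts SREBP to its activating proteases, had signals of 272 and 875 (log2 ratio 1.68), and Srebf2, the SREBP that chiefly drives cholesterol genes, 199 and 612 (1.62). Ppard, a fatty acid receptor, had signals of 82.5 and 204 (1.31). Srebf1, the SREBP of fatty acid synthesis, named after its values were seen, had signals of 675 and 424 (log2 ratio -0.67), less than 2-fold apart.

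Among 25 other measured genes of synthesis and modification, 6 (24%) were at least 2-fold higher in SVEC4-10 and 1 (4%) in MS-1. Their median was 0.16, and -0.35 in the scaling to poly-A controls. Hacd1, a dehydratase of the elongation cycle, had signals of 263 and 1256 (log2 ratio 2.26). Acss2, which makes acetyl-CoA from acetate, had signals of 37.5 and 146 (1.96), and Cyb5a, the electron donor of desaturases, 1091 and 3384 (1.63). Prkaa2, a catalytic subunit of the kinase AMPK that inhibits acetyl-CoA carboxylase, had signals of 91.6 and 9.27 and was at least 5.20-fold higher in MS-1.

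Of 23 other measured mitochondrial genes, 2 (8.70%) were at least 2-fold higher in SVEC4-10 and 1 (4.35%) in MS-1. They were Acad8 (46.2 and 156), a dehydrogenase of valine breakdown, Acot13 (474 and 1038), a thioesterase, and Acad10 (41.2 and 19.2). Of 18 measured peroxisomal genes, 3 (16.7%) were at least 2-fold higher in SVEC4-10 and none in MS-1, with a largest log2 ratio of 1.45. These were Acox2, an oxidase of branched chains (12.7, below background, and 44.5), Hacl1, of alpha-oxidation (53.5 and 112), and Eci2, an isomerase (309 and 642). The medians of both lists, 0.22 and 0.30, became -0.29 and -0.21 in the scaling to poly-A controls.

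Genes that hold and restrain lipoprotein lipase were among those that differed. Of 13 other measured genes of uptake, binding and activation, 3 (23.1%) were at least 2-fold higher in SVEC4-10 and 4 (30.8%) in MS-1. Gpihbp1, the endothelial anchor of the lipase, had a signal of 157 in MS-1 and 16.9 in SVEC4-10, at least 8.92-fold higher in the former. Angptl4, a secreted inhibitor of the lipase, had signals of 398 and 12.8, at least 22.6-fold higher in MS-1. Vldlr, a lipoprotein receptor, had signals of 13.6 and 175, at least 10.7-fold higher in SVEC4-10, with log2 ratios from 0.26 to 3.71 among 6 probe sets. Apobec1, an editor of apolipoprotein B RNA, had signals of 10.2 and 83.6, at least 5.13-fold higher in SVEC4-10. By the background used, the lipase was thus above it in SVEC4-10 only, and its anchor and this inhibitor in MS-1 only. This split depends on the cutoff, since Gpihbp1 in SVEC4-10 lay just under the background of 17.6. With the 40th percentile of all probe sets as background, Gpihbp1 and Angptl4 were above it in SVEC4-10 (log2 ratios -3.22 and -4.96). Each of these 2 genes rests on 1 measured probe set. Another 14 genes of the list were on the array but not above background, among them (named after its values were seen) the fatty acid transporter Cd36.

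In glycerolipid synthesis, 6 of 22 other measured genes (27.3%) were at least 2-fold higher in SVEC4-10 and 5 (22.7%) in MS-1 (median -0.15). Mboat1 and Mboat2, acyltransferases of lysophospholipids, lay in opposite directions, with signals of 59.8 and 547 (log2 ratio 3.19) and of 255 and 28.6 (-3.16). The second probe sets gave 1.83 and -0.74. Lpin3, a relative of Lpin1, had signals of 143 and 0.90 and was at least 8.12-fold higher in MS-1, the direction of Lpin1. Dgka, a diglyceride kinase, had signals of 26.7 and 192 (log2 ratio 2.84).

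Among 19 other measured genes of droplet coat and lipolysis, 4 (21.1%) were at least 2-fold higher in SVEC4-10 and 2 (10.5%) in MS-1. None was 4-fold apart. Bscl2, the droplet biogenesis protein seipin, had signals of 410 and 154 (log2 ratio -1.42), and Pnpla6, a phospholipid hydrolase, 284 and 121 (-1.23). Faf2, which recruits degradation factors to droplets, had signals of 131 and 306 (1.23), and Abhd12, a lysophospholipase, 285 and 612 (1.10). Plin5, Cidea and Cidec, further droplet proteins of fat-storing and oxidative tissues, were not above background on either array. The same held for Fitm1, G0s2, Ces1d and Ces1f of this list.

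**Figure D4:**
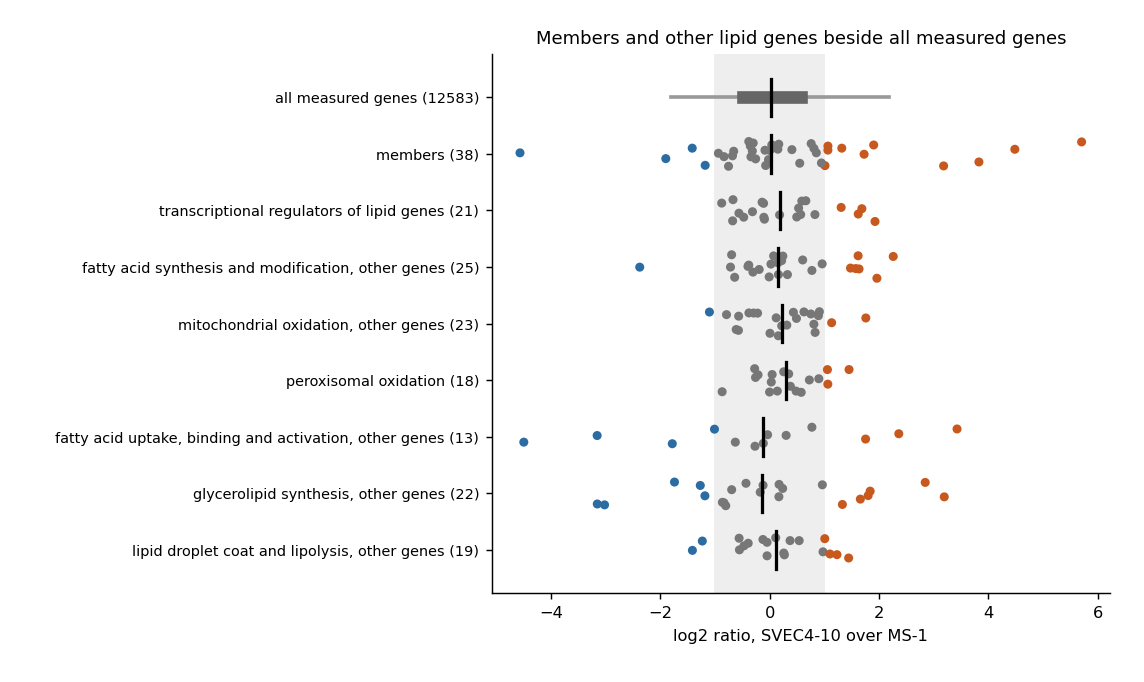
Log2 ratio of SVEC4-10 over MS-1 for the 38 measured members and for the measured genes of 7 further lists, with the number of genes in parentheses. Each point is a gene (orange and blue, at least 2-fold higher on the SVEC4-10 and MS-1 array), black ticks are medians, and the bar for all measured genes spans the 25th to 75th percentile, with a line from the 5th to the 95th. The 5th to 95th percentile of all measured genes runs from -1.80 to 2.19, and the members reach from -4.57 to 5.70 around a median of 0.019.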

How the data were processed

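Deposited were linear intensities, 1 for each of 45101 probe sets per array. The summary method is not given in the sources used here. Per the labels' protocols, biotinylated cRNA was made from 6 µg of Trizol-extracted RNA. The 2%-trimmed mean was 150.001 in each case, so the authors' intensities had been scaled to 1 target. They were used unchanged. That scaling assumes equal total signal.

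Names came from the platform annotation, updated by gene identifier to RefSeq GRCm38.p6: 34945 named 1 gene, 34741 of which were matched, 932 named several and 9160 none, and 64 were controls. The 129 probe sets of receptor and keratin-associated genes set the background, at their 95th percentile. Of a gene's probe sets above background on at least 1 array, that with the highest mean log2 signal was used, avoiding the _x_at class where another existed. The steps were run on simulated data made from the MS-1 array with added noise. Only genes of high signal were changed there, with all probe sets of a gene changed alike. That run did not test scaling, disagreement between probe sets or genes near background. Python 3.11.15, numpy 2.4.6 and pandas 2.3.3 were used.

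All members are named. Of other pathway lists, up to 4 genes are named, those at least 2-fold apart with the largest ratio and 1 sign across probe sets. Srebf1, Cd36 and the droplet genes not above background are named outside that rule. Of marker lists the up to 4 brightest were examined. Members and lists were chosen with earlier results of these data known. The number of arrays limits the precision.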

Additional observations from a re-analysis of the deposited data

How the results depend on the processing

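Of 14 members at least 2-fold apart, all 14 were so after centring on the median, with the 40th percentile of all probe sets as background and with no background floor. Scaling to the poly-A controls gave 6 members at least 2-fold higher in SVEC4-10 and 9 in MS-1, beside 8.42% and 25.3% of all measured genes, with a median log2 ratio of -0.49, beside -0.49 for all measured genes. The probe set with the smallest ratio gave 6 members higher in SVEC4-10 and 4 in MS-1, beside 11.1% and 8.59% of all measured genes. It lost Elovl6, Elovl7, Acsl3 and Acaa2, where the ratios of Elovl7 and Acsl3 are bounds. Elsewhere the counts were 8 to 10 and 3 to 5, beside 13.9% to 18.2% and 10.7% to 16.3% of all measured genes. Quantile normalization lost Acaa2 and Lipe and added Dgat2, a doubled background lost Lipe, and the mean over probe sets lost Elovl6 and added Fads3. Without the _x_at, _s_at and _a_at classes 33 members remained measured, Acaa2 fell short of 2-fold (0.92), and Fabp4 and Mgll had no probe set above background left. No called member changed direction under any alternative that measured it. Signals near background limit Fabp3, Lipe, Elovl7 in MS-1, and every fold given as a bound. No paired analysis was possible because each line has 1 array.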
